A study of Mus musculus with 59 samples.

Results

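The genes described here handle iron in cells: the ferritin heavy chain Fth1 and light chain Ftl1, the iron carrier transferrin (Trf) and the transferrin receptor (Tfrc). The list named 5 genes, of which 4 had a row in the table of 20689 genes, and the iron exporter Slc40a1 was not analysed here. They were selected on measured values of the same table, since Fth1 and Ftl1 were among its most abundant transcripts, so their levels are given as a description with no test.

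The study asked whether astrocytes can be turned into neurons by chemicals in the living brain. The samples are 59 single mouse cells whose labels read chemical-induced neurons and give an age of 12 weeks. Per the labels' protocol, a patch pipette drew out the soma of each cell in vivo, and its RNA was sequenced on an Illumina instrument. The labels name neither an animal nor the compounds used and put all cells in 1 group, so the 59 cells count as 1 sample, and no untreated neurons or astrocytes were analysed here. Values are FPKM, fragments scaled to exon length and to the mapped fragments of the cell, so genes can be set side by side per length. An FPKM of at least 1 was taken as detection.

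Ferritin is a hollow protein shell built of heavy and light chains. The heavy chain oxidises incoming iron and the light chain helps to lay down the mineral core. Transferrin carries iron between cells and the transferrin receptor takes it up, and in the brain oligodendrocytes are rich in ferritin and are a main source of transferrin messenger RNA, while microglia are known for storing iron in ferritin. Translation of ferritin and stability of the receptor transcript are set by iron regulatory proteins that bind a hairpin, the iron-responsive element, in the untranslated regions.

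That hairpin is what joins the storage genes to the receptor, so the elements were read from the coding transcripts of the GENCODE M21 annotation on GRCm38. The search asked for a C, any 5 bases, CAGTG and any base on the transcript strand, with 5 paired bases between bulge and loop. Capitals mark the bulged C and the CAGTG of the loop.
Fth1 5′ UTR, chr19:9982731-9982760 on the plus strand: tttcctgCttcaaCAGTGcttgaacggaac
Ftl1 5′ UTR, chr7:45459779-45459808 on the minus strand: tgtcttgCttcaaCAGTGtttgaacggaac
Tfrc 3′ UTR, chr16:32631218-32631247 on the plus strand: taattatCggaagCAGTGccttccataatt
Tfrc 3′ UTR, chr16:32631597-32631626 on the plus strand: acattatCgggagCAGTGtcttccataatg
Tfrc 3′ UTR, chr16:32631662-32631691 on the plus strand: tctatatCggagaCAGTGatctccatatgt
Tfrc 3′ UTR, chr16:32631709-32631738 on the plus strand: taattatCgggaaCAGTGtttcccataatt

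Fth1 and Ftl1 each held 1 match ahead of the start codon, Tfrc held 4 in its 3′ UTR, and Trf held 0. The motif was found in 294 of 21877 coding genes (1.34%), so a match alone is a description of these letters. On GRCm38, Fth1 spans bases 9980598 to 9985098 of chromosome 19 and Ftl1 spans 45457944 to 45459884 of chromosome 7. Trf spans 103204001 to 103230444 of chromosome 9, and Tfrc spans 32608920 to 32632794 of chromosome 16.

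The marker genes of the cells did not all go with the neuron label. Of 21 neuronal markers, 20 were detected in at least 30 cells, led by Snap25 in 54 cells. The oligodendrocyte list had 9 of 12 markers detected that widely, and the microglia list had 8 of 13, led by the complement gene C1qb in 42 cells. Of 15 astrocyte markers, 4 were detected that widely, as were 11.7% of all genes in the table. Set by the list with the highest mean log2(FPKM + 1), oligodendrocyte genes led in 26 cells, neuronal genes in 20, microglia genes in 11 and astrocyte genes in 2. In 12 cells the next list lay within 1 log2 unit, so these are ranges of a score and not cell types. With the list median in place of the mean, 53 of 59 cells kept the same leading list. Estimated depth lay between 29043 and 2950400 fragments, with 912996 in the median cell, and 475 to 10310 genes were detected per cell.

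Fth1 was high in nearly every cell. It was detected in 59 of 59 cells (exact 95% interval from 93.9%), 1 of 16 genes found in all of them, and by its median FPKM it ranked 2 among all genes. The lowest cell had 35.9 FPKM, the median cell 14244 and the highest 65660, with quartiles of 7490 and 23737. Per fragment rather than per length, Fth1 alone made up a median of 1.23% of a cell's estimated fragments, with a range of 0.00311 to 5.69%. The top value belonged to cell 10, led by oligodendrocyte genes, and the next to cell 36, led by microglia genes, with 61497 FPKM. Cells 46, 39 and 20 stood apart below, with 35.9, 72.4 and 79.5 FPKM, and the next cell up, cell 12, had 1009 FPKM. Neuronal genes led in these 4 cells, and cell 20 was also the shallowest of all, with 2 recovered Fth1 fragments.

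Ftl1 was detected in 56 of 59 cells (94.9%, 85.9 to 98.9%) and ranked 15 by its median. The lowest cell was at 0, the median cell had 1073 FPKM and the highest 26002, with quartiles of 564 and 2485. It took a median of 0.144% of a cell's fragments, up to 3.48%. Its spread over cells, an SD of 3.24 on the log2(FPKM + 1) scale, was wider than that of Fth1, at 2.14. The 3 cells at the top, numbers 36, 28 and 15, had 26002, 12015 and 7703 FPKM, and microglia genes led in each. Cells 20, 39 and 41 had no Ftl1 fragment. A count of 0 there allows up to 3 fragments, which is 77.1 FPKM in cell 20, 4.68 FPKM in cell 39 and 15.7 FPKM in cell 41.

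Cell 41 was unlike the other 2, because its Fth1 stood at 48835 FPKM from 6044 fragments, while the Fth1 values of cells 20 and 39 were near the bottom. Fth1 in cell 41 was 3117-fold above the limit of 15.7 FPKM for Ftl1, which covers counting error only. Cell 41 had 907 detected genes and 142913 estimated fragments. Other light chain rows were low: Ftl2 had a median of 5.86 FPKM and Gm10116 a median of 3.98 FPKM, and RefSeq lists both symbols as synonyms of pseudogenes. Together with 4 further rows whose transcripts align to Ftl1, they held a median of 1.17% and at most 6.87% of the summed light chain FPKM. The heavy chain copy Gm6977, a pseudogene in RefSeq with 90.5% identity over 56.4% of the Fth1 transcript, had a median of 13.5 FPKM and was detected in 48 cells, and Fth-ps2 in 4. The counting of reads that match several copies is not given in the sources used here, so reads could be split among these rows.

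In each of the 56 cells with both chains, Fth1 was above Ftl1. The ratio of Fth1 FPKM to Ftl1 FPKM had a median of 11.8, with quartiles of 5.33 and 19.4 and a lowest value of 1.63, and it was above 10 in 30 cells. On the log2 scale the median was 3.55 with an SD of 2.16 over cells. The highest ratios, 7908 in cell 53 and 6154 in cell 62, rested on 7 and 1 Ftl1 fragments. With both genes at 10 FPKM or more the ratio ran from 1.63 to 68.9 in 53 cells, with a median of 10.8. The size of the ratio turned on the exon length used for Fth1. The deposited values came out as whole fragments with 866 exon bases for Fth1, against 3469 in GENCODE M21, while the Ftl1 length of 1340 bases was the same in both. With the M21 lengths the median ratio was 2.94 and Fth1 was above Ftl1 in 47 of 56 cells. That step divided Fth1 fragments recovered with 866 bases by 3469 bases. Count and length did not match there, so this value is not a like-for-like alternative. With fragments and no length the median ratio was 7.60. With 1 coding transcript each, of 929 bases for Fth1 and 968 for Ftl1, it was 7.92. With each of these 2 settings Fth1 was above Ftl1 in 56 of 56 cells.

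**Figure D1:**
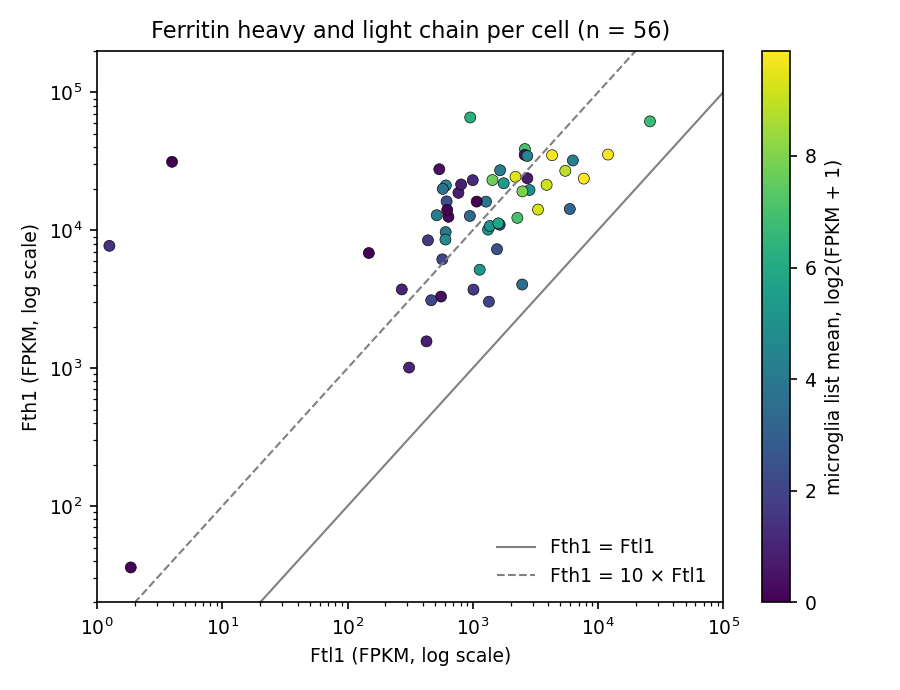
Each point is 1 of 56 cells, with Ftl1 FPKM on the horizontal axis and Fth1 FPKM on the vertical axis, both on log scales, coloured by the mean log2(FPKM + 1) of the microglia list. All points lie above the solid line of equal levels, 30 lie above the dashed line of a ratio of 10, and cells 53 and 62 lie far to the left with few Ftl1 fragments.

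Among the cells where microglia genes led, the ratio was 1.63 to 11.1 with a median of 4.92. Where oligodendrocyte genes led it was 5.09 to 7908 with a median of 15.0, and where neuronal genes led it was 2.25 to 6154 with a median of 9.31. The ranges overlapped. Over the 56 cells the ratio had a Spearman rho of -0.39 with the microglia list and 0.43 with the oligodendrocyte list, and of -0.17 with the neuronal list. The microglia-led cells also had more genes detected, a median of 4825 against 3962.5 in oligodendrocyte-led and 3357 in neuronal-led cells. The ratio had a rho of -0.12 with the number of genes detected, and given that number its rho was -0.38 with the microglia list and 0.47 with the oligodendrocyte list.

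Trf was detected in 42 of 59 cells (71.2%, 57.9 to 82.2%). Its lowest value was 0 in 13 cells, its median 11.2 FPKM and its highest 218 FPKM, with quartiles of 0.510 and 60.0. Its median was 27 fragments per cell, and 40 cells had 10 or more, 6 had 1 to 9 and 13 had 0. Of the 26 cells led by oligodendrocyte genes, 26 had Trf, at 7.42 to 218 FPKM with a median of 60.0. Of the 20 cells led by neuronal genes, 5 had it (25.0%, 8.66 to 49.1%), at most 17.8 FPKM. Microglia-led cells lay between, with Trf in 10 of 11 cells and a median of 11.2 FPKM. The 6 highest Trf values of all, from 133 to 218 FPKM, were in oligodendrocyte-led cells.

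Tfrc was the sparsest of the 4 genes. It was detected in 21 of 59 cells (35.6%, 23.6 to 49.1%) and was at 0 in 36, where 3 fragments would have given 0.173 to 16.7 FPKM. Its highest value was 33.1 FPKM, from 122 fragments in cell 62, which had only 1074 genes detected. It was present in 10 of 26 oligodendrocyte-led, 3 of 11 microglia-led, 6 of 20 neuronal-led and 2 of 2 astrocyte-led cells. The interval for the 2 astrocyte-led cells ran from 15.8 to 100%, and the shares were not tested against each other. Only 18 cells had 10 or more Tfrc fragments. In the 36 cells at 0 the limit had a median of 0.610 FPKM. It covers counting error only, so a lower level and a missed transcript cannot be told apart there. Counting by breadth, 3 of the 4 genes were detected in at least 30 of 59 cells, as were 11.7% of all genes, and nothing is read from that because level was used to choose the genes.

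**Figure D2:**
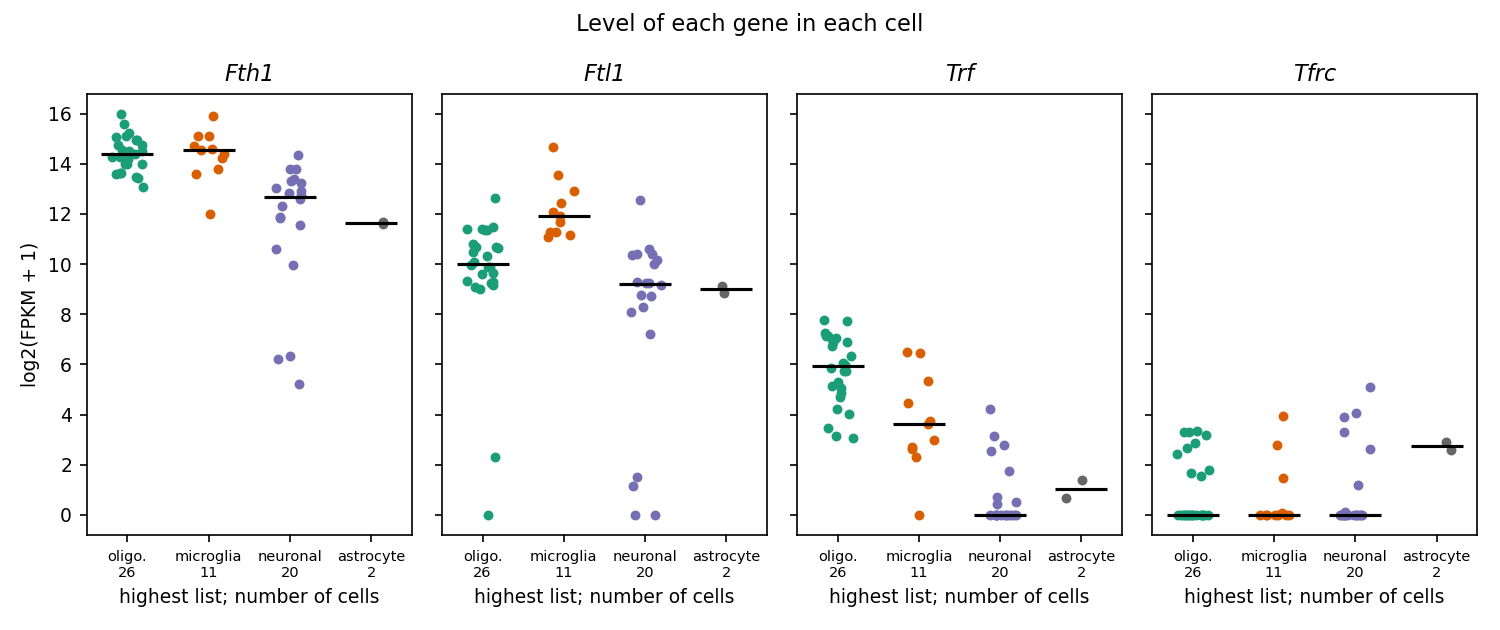
Each point is 1 of 59 cells, on a log2(FPKM + 1) axis, grouped by the marker list with the highest mean in that cell, and black lines are medians. Fth1 medians were 21672 FPKM in oligodendrocyte-led and 23671 in microglia-led cells against 6487 in neuronal-led cells, Trf was at or near 0 in most neuronal-led cells, and Tfrc was at 0 in most cells of the 3 larger groups.

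By their medians, Fth1 stood alike in oligodendrocyte-led and microglia-led cells, and Ftl1 stood higher in microglia-led cells, with no test. Fth1 had nearly the same median in oligodendrocyte-led cells, at 21672 FPKM (8557 to 65660), and in microglia-led cells, at 23671 FPKM (4037 to 61497). Neuronal-led cells had a median of 6487 FPKM (35.9 to 21106), and the 2 astrocyte-led cells had 3104 and 3301 FPKM. Ftl1 was highest in microglia-led cells, with a median of 3886 FPKM (2191 to 26002). Oligodendrocyte-led cells had a median of 1036 FPKM (0 to 6295) and neuronal-led cells one of 589 FPKM (0 to 5952). The ranges of Ftl1 overlapped between these groups, although its lowest microglia-led cell lay above the median of both others.

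Relations to the marker lists were taken as Spearman correlations over the 59 cells, which share 1 table, the same FPKM denominator and unequal depths, so they are descriptions with no p. Trf followed the oligodendrocyte list, with a rho of 0.82. Each ranking left out the genes of its own list, and only 6 of 8030 genes detected in at least 12 cells ranked above Trf. The median over those genes was 0.10. Fth1 had a rho of 0.63 with the same list, at rank 106, and Ftl1 one of 0.22. With the microglia list the order was Ftl1 at 0.69, rank 21 of 8029 genes, then Fth1 at 0.38 and Trf at 0.13, against a median of 0.20 over all genes. On log2(FPKM + 1), Pearson's r was 0.84 for Trf and 0.61 for Fth1 with the oligodendrocyte list, and 0.58 for Ftl1 with the microglia list. Given the number of genes detected, the partial rho was 0.84 for Trf and 0.67 for Fth1 with the oligodendrocyte list and 0.71 for Ftl1 with the microglia list.

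Marker by marker the pattern was broad. Fth1 had a rho above 0 with 12 of 12 oligodendrocyte and 13 of 13 microglia markers, where 38.7% of 8042 genes had one, with medians of 0.54 and 0.37. Ftl1 had a median rho of 0.61 with the 13 microglia markers and of 0.17 with the 12 oligodendrocyte markers. Trf had a median rho of 0.71 with the 12 oligodendrocyte markers. Trf also had a rho of 0.58 with a list of 9 oligodendrocyte precursor markers, of which only Olig1, a gene that mature oligodendrocytes also express, was detected in at least 30 cells (42 cells). Of 5 erythroid markers, 0 were detected in at least 30 cells, with Alas2 in 0 cells and Hba-a1 in 9. Since 11.7% of all genes were detected that widely, neither this count nor that of precursor markers is read as a result. The rho of the 4 genes with the erythroid list ran from -0.10 to 0.07.

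Against neuronal genes the direction was the opposite, more weakly so against astrocyte genes, and here the scale decided the sign. On FPKM, Fth1 had a rho of -0.61 with the neuronal list, the lowest of 8021 genes, and Trf one of -0.54, the next to lowest, where the median gene had 0.30. Fth1 had a rho above 0 with 0 of 21 neuronal markers, Ftl1 with 0 and Trf with 1, where the share of 8042 genes above 0 was 38.7% for Fth1, 63.6% for Ftl1 and 47.3% for Trf. When the gene and the list were both divided by the summed ERCC spike-ins of the cell, synthetic RNAs added to each sample, the rho with the neuronal list turned to 0.41 for Fth1 and 0.034 for Trf. On that scale the median over all genes was 0.51, and Fth1 stood at percentile 27.4 and Trf at percentile 0.386. Ftl1 had -0.23 with the neuronal list on FPKM and 0.45 per ERCC. With the astrocyte list the rho on FPKM was -0.26 for Fth1, -0.32 for Trf and -0.018 for Ftl1, where the median gene had 0.22. Per ERCC these values were 0.42, 0.12 and 0.43, beside a median over all genes of 0.42. Pearson's r on log2(FPKM + 1) with the neuronal list was -0.39 for Fth1, -0.55 for Trf and 0.032 for Ftl1. The rho with the oligodendrocyte list stayed positive per ERCC, at 0.85 for Fth1 and 0.91 for Trf, as did Ftl1 with the microglia list at 0.84. Gene and list share the ERCC divisor there, and the medians over all genes were 0.32 for the oligodendrocyte and 0.36 for the microglia list.

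**Figure D3:**
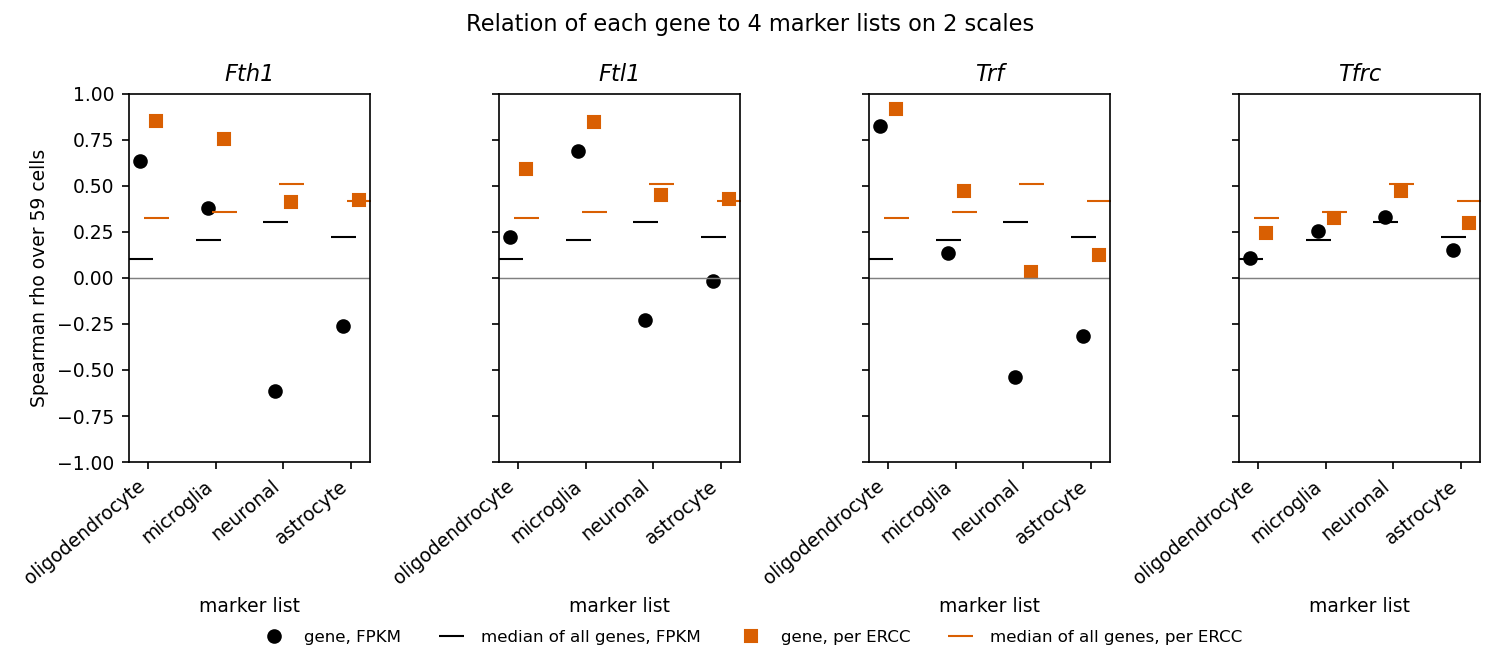
Spearman rho over 59 cells of each gene with 4 marker lists, as deposited FPKM (black circles) and per summed ERCC (orange squares), with the median over all genes as dashes of the same colour. Trf with the oligodendrocyte list and Ftl1 with the microglia list lie far above the dashes on both scales, and Tfrc stays near the dashes. Fth1, Ftl1 and Trf change sign with the neuronal list and with the astrocyte list.

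Within the cells led by 1 list the relations were not the same. Trf had a rho of 0.63 with oligodendrocyte genes among the 26 oligodendrocyte-led cells of 0.76 among the 11 microglia-led cells and of 0.34 among the 20 neuronal-led cells. Ftl1 had a rho of 0.72 with microglia genes among the 20 neuronal-led cells, 0.44 among the oligodendrocyte-led and 0.26 among the microglia-led cells. Fth1 had a rho of 0.74 with oligodendrocyte genes among neuronal-led cells, but of 0.22 among oligodendrocyte-led and 0.05 among microglia-led cells. The heavy to light ratio had a rho with microglia genes of 0.35 among 11 microglia-led, -0.32 among 25 oligodendrocyte-led and -0.29 among 18 neuronal-led cells. With oligodendrocyte genes its rho was 0.46, 0.45 and 0.09 in the same order. On FPKM, the rho of Fth1 with neuronal genes was -0.54 within oligodendrocyte-led cells, -0.77 within the 11 microglia-led cells and 0.22 within neuronal-led cells. The values within groups were not computed per ERCC, the scale on which the sign changed for Fth1 over all cells. Whether RNA of neighbouring cells entered the pipette was not tested.

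**Figure D4:**
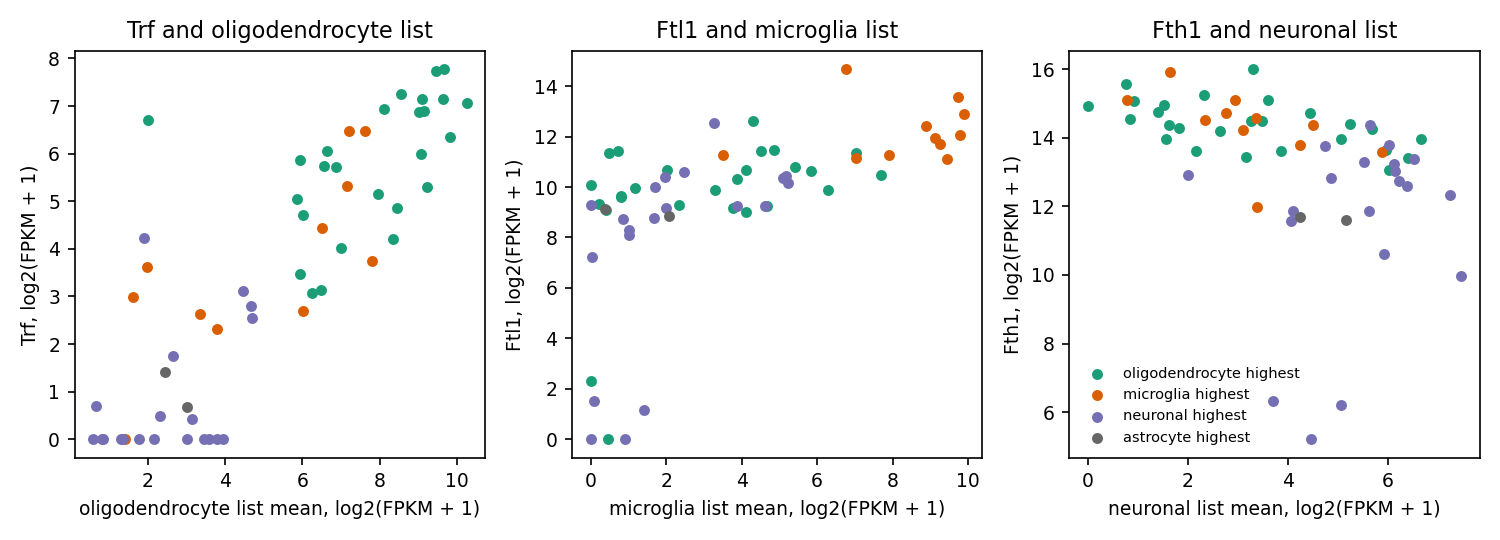
Each point is 1 of 59 cells, with the mean log2(FPKM + 1) of a marker list on the horizontal axis and a gene's log2(FPKM + 1) on the vertical axis, coloured by the list that led. Trf climbs with oligodendrocyte genes (rho 0.82), Ftl1 with microglia genes (rho 0.69), and Fth1 is lower where neuronal genes are higher (rho -0.61), with 3 neuronal-led cells far below.

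Over all 59 cells, Tfrc had a rho of 0.11 with oligodendrocyte, 0.25 with microglia and 0.33 with neuronal genes, beside the medians over all genes of 0.10, 0.20 and 0.30. It had a rho of 0.47 with the number of genes detected, and given that number its rho with the microglia list was 0.032 and with the neuronal list 0.10. Within single groups its rho with neuronal genes was 0.53 in the 26 oligodendrocyte-led cells and 0.29 in the 20 neuronal-led cells, and its rho with microglia genes was 0.36 in the oligodendrocyte-led and 0.52 in the neuronal-led cells. Tfrc was at 0 in most cells of each of these groups, and these values were not adjusted for the number of genes detected.

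Among the members themselves, Fth1 and Trf were closest, with a rho of 0.75, followed by Fth1 and Ftl1 at 0.54 and Ftl1 and Trf at 0.29. The rho of Tfrc with the other 3 lay between -0.05 and 0.09. The genes most like each member, by Spearman rho among those detected in at least 12 cells, are named next. For Fth1 they were Gm6977 (0.79), Trf (0.75), the myelin gene Ermn (0.67) and the tetraspanins Cd63 (0.67) and Cd9 (0.67). For Ftl1 they were Gm10116 (0.78), Ftl2 (0.76), the microglia signalling adaptors Tyrobp (0.71) and Fcer1g (0.71) and the lysosomal protease Ctsd (0.71). The light chain copies and Gm6977 may share reads with the genes they resemble. For Trf they included Ermn (0.88), the small heat shock gene Cryab (0.84), the lipid carrier Apod (0.84) and Cmtm5 (0.79). For Tfrc they were Tufm (0.68), Dpy19l4 (0.66), Terf2ip (0.62), Med13l (0.61) and Ring1 (0.61), each with a median of 0 FPKM.

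Most other iron genes were detected in fewer than 30 of 59 cells, as were most genes of the table. Of 46 listed, 36 had a row in the table, and 8 of these (22.2%) were detected in at least 30 of 59 cells, as were 11.7% of all genes. The median iron gene was detected in 22.9% of cells and the median gene of the table in 11.9%. Pcbp1, an iron chaperone that delivers iron to ferritin, was found in 47 cells with a median of 60.6 FPKM, and its relative Pcbp2 in 31. Iron-sulphur cluster genes were the scaffold Iscu in 41 cells, Isca1 in 32 and Glrx5 in 30, and Fech, which puts iron into haem, was found in 35. The haem transporter Slc48a1 was found in 41 cells with a median of 87.7 FPKM and had a rho of 0.55 with the oligodendrocyte list, and the haem oxygenase Hmox2 was found in 36.

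The remaining iron genes were each detected in fewer than 30 cells. The ferritin autophagy receptor Ncoa4 was detected in 21 cells and Fbxl5, which marks an iron regulatory protein for breakdown, in 28. The iron regulatory proteins themselves, Aco1 and Ireb2, were each detected in 10 cells. Of 8 uptake genes, Lrp1 led with 23 cells, the metal transporters Slc11a2 and Slc39a14 followed with 14 each, and the second transferrin receptor Tfr2 and the reductase Steap1 were each found in 2. Of 5 genes of export and systemic control, Hfe led with 9 cells, the ferroxidase Heph had 3, Cp and Tmprss6 had 2 and the hormone Hamp had 1. The inducible haem oxygenase Hmox1 was detected in 14 cells, the biliverdin reductases Blvra in 20 and Blvrb in 13, and the haemoglobin scavenger receptor Cd163 in 1.

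**Figure D5:**
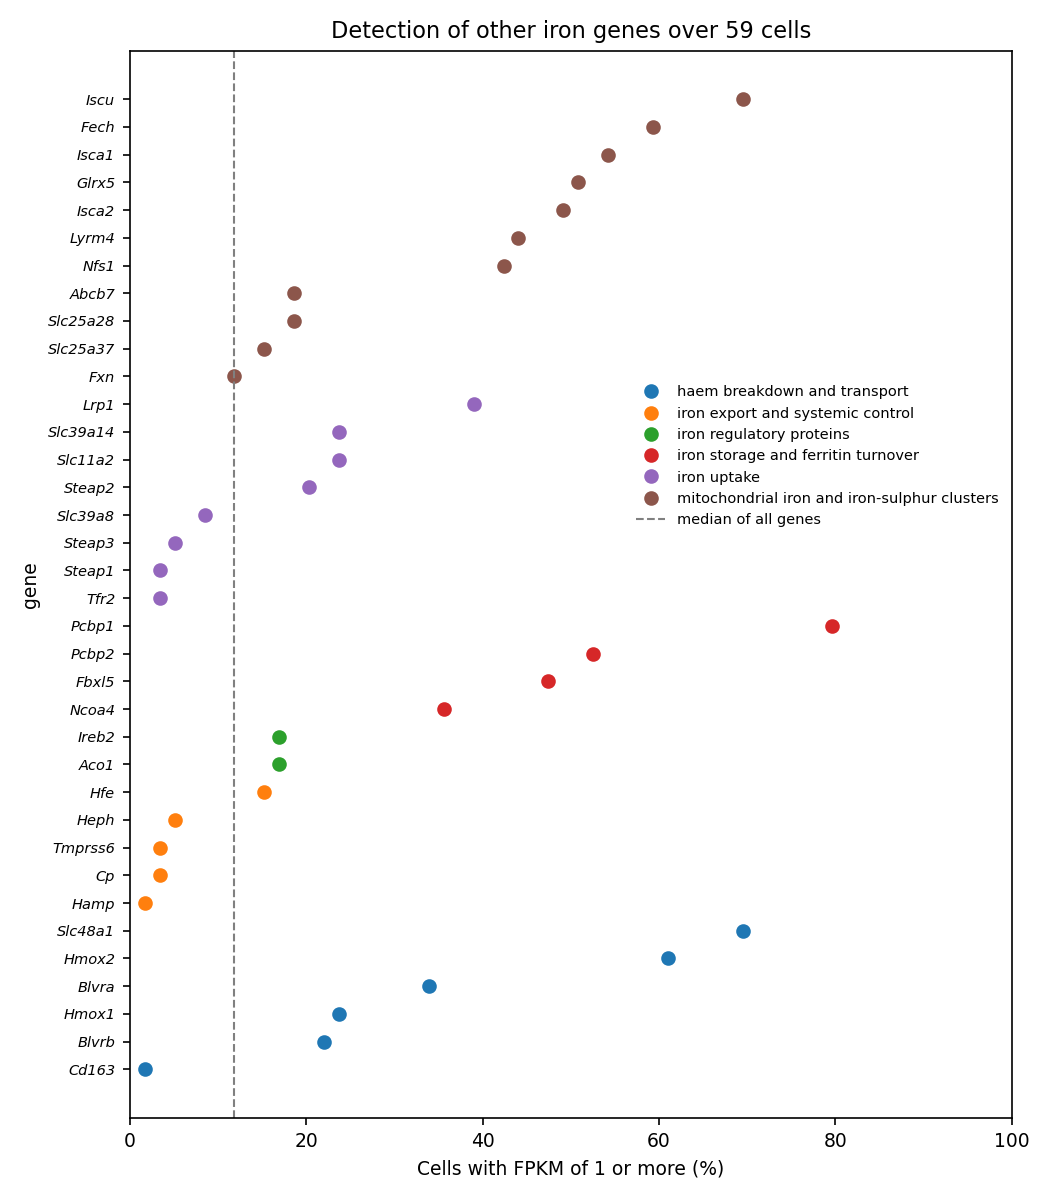
Percent of the 59 cells with an FPKM of 1 or more (horizontal axis) for each of 36 other iron genes, coloured by list, with a dashed line at the median of all genes (11.9%). Pcbp1 (79.7%), Iscu (69.5%) and Slc48a1 (69.5%) lie furthest right, and genes of export and systemic control lie near the left edge.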

How the data were processed

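The authors deposited 1 table of FPKM with 1 column per cell, and the submitters' processing notes name STAR 2.5.3a, featureCounts 1.5.3 and build GRCm38. Neither the annotation release nor the handling of multi-mapping reads is given in the sources used here. The table holds 20689 genes and 51 ERCC spike-ins, which were left out of gene counts. Fragments per cell were estimated from the spacing of FPKM multiplied by GENCODE M21 exon length (19366 genes), and a median of 73.4% of values up to 20 fragments came out whole within 0.02 fragments, so no count model was used. The exon length behind each gene's FPKM was the smallest at which its fragments were whole, with 5 cells whose values often fell midway between whole fragments left out. The depth estimate and the correlation step were tested on simulated data, with whole counts and known exon lengths for every gene. The search for the exon length behind each gene was not tested in that way.

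The 4 genes and the gene lists were chosen with earlier results of these data known. Cells were 1 sample, so no test between groups and no p-value was computed. Correlations are Spearman's rho, and list scores are means of log2(FPKM + 1). Shares carry exact Clopper-Pearson 95% intervals, and limits for values of 0 rest on 3 fragments, both for counting error only. Named genes are the members, other ferritin symbols, the most and least detected iron genes of each list and any in at least 30 cells, the 5 genes nearest each member, and the ends of each marker list. 1 gene that this rule names is not reported here. Ferritin copies were found with blastn 2.17.0+ (85% identity, 50% of the transcript) among symbols in GENCODE M21, which was chosen after seeing the data. Tools were Python 3.11.15, pandas 2.3.3, scipy 1.17.1 and matplotlib 3.10.9. Alternatives changed the detection threshold, scaling, pseudocount, list summary, depth minimum and exon length.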

Additional observations from a re-analysis of the deposited data

How the results depend on the processing

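Of 278 alternative values over 42 results, 14 moved beyond the tolerance set for them and 3 reversed. That tolerance was 0.2 for a rho and 1 SD over cells for the log2 ratio, which is wide: the median ratio of 11.8 fell to 2.94 with GENCODE M21 lengths without passing it. The count of iron genes in at least 50% of cells ranged from 6 to 12, against 8. Of the 17 values that moved or reversed, 10 came from dividing by ERCC, where member and list share the same divisor. Per ERCC the rho of Fth1 was 0.85 with the oligodendrocyte, 0.75 with the microglia, 0.41 with the neuronal and 0.42 with the astrocyte list. That of Ftl1 was 0.59 with the oligodendrocyte, 0.45 with the neuronal and 0.43 with the astrocyte list. That of Trf was 0.47 with the microglia, 0.034 with the neuronal and 0.12 with the astrocyte list. The cause was not tested. In cells with at least 500000 fragments, Ftl1 was detected in 100% and the rho of Tfrc with the oligodendrocyte list was -0.15. In cells with at least 2000 genes, Ftl1 had a rho of -0.47 with the neuronal list. Given the number of genes detected, Tfrc had a rho of 0.032 with the microglia and 0.10 with the neuronal list. With GENCODE M21 lengths, chosen after seeing the data, Fth1 was above Ftl1 in 83.9% of cells. The Fth1 fragments in that setting had been recovered with 866 bases, so count and length did not match. The median log2 ratio ran from 1.55 with the M21 lengths to 3.66 with a pseudocount of 1. The relations within cells led by 1 list were also chosen after seeing the data. Levels divided by ERCC have another unit and were not run. No paired analysis was possible because there is 1 group. Where a gene was at 0, the level that 3 fragments allow had a median of 15.7 FPKM for Ftl1, 1.87 for Trf and 0.610 for Tfrc.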
